A study of Homo sapiens with 6 samples.

Results

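Microsatellites are short units of DNA repeated head to tail. Levels are given as CPM, the deposited counts scaled to the same total of repeat counts in every library. Described here are the repeat entries whose unit is 1, 2 or 3 bases long, chosen by name alone from the table of normalized repeat counts. There were 80 such entries among the 7383 in that table: 4 with a 1-base unit, 14 with a 2-base unit and 62 with a 3-base unit. Of these, (CC)n, (CCC)n, (TT)n and (TTT)n repeat a single base and keep here the unit length of their name. The raw table holds 2 further names of this form, (AAA)n and (GGG)n, with totals of 7 and 6 counts over all libraries, under the 10 counts of the lowest listed entry; the rarest members, (CCC)n, (CC)n and (GTA)n, had 154, 214 and 230. All 80 entries passed the filter on low counts. The RNA came from H9 cells, a long-established line of human embryonic stem cells, as 2 libraries in each of 3 groups. RSeT+DT cells grew in RSeT, a commercial medium for a naive-like state, to which 10 nM DZNep and 5 nM TSA had been added for 48 hours. RSeT cells were kept in the same medium without the drugs, and primed cells were kept in mTeSR medium. TSA, trichostatin A, blocks histone deacetylases, and DZNep blocks S-adenosylhomocysteine hydrolase, which depletes the Polycomb mark H3K27me3. All 6 libraries came from the same line and the same stranded total RNA kit. The drugs were given together and in RSeT medium only, so the effects of one drug and the other cannot be told apart.

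Microsatellites arise and change length mainly by slippage of the replication machinery. They lie in introns and between genes, and also in untranslated regions, promoters and coding exons, where a 3-base unit can lengthen without shifting the reading frame. Long arrays of CAG, CTG or CGG cause inherited disorders, among them Huntington disease (CAG in HTT), myotonic dystrophy (CTG in DMPK) and fragile X syndrome (CGG in FMR1). Units that hold the dinucleotide CpG, such as CCG, carry sites that DNA methyltransferases can modify.

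An entry sums reads over all genomic copies that bear its name, so no single locus belongs to a value. Rotations of a unit and its reverse complement are separate entries, such as (CAG)n and (CTG)n, and form 1 motif class, named here by its first member in the alphabet. The 80 entries form 16 such classes. Arrays of 4 classes are shown because their counts moved differently between the groups: CCG and AGC, with GC-rich units, and AC and AAT, with less GC. Each is the longest perfect array of its class found in the 250 bases before a gene start in RefSeq (GRCh38.p14), on the chromosomes searched. Only the longest array of each promoter was considered, and it had to lie in those bases with 10 more on either side. Fewer chromosomes were searched for these arrays than for the shares of promoters below. The array is in capitals, 5′ to 3′ on the strand of the gene.
CCG class (WNT4, chr1:22143114-22143163, minus strand, 10 units ending 26 bases before the gene start): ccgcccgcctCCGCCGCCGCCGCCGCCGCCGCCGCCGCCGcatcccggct
AGC class (LOC105373146, chrX:21374587-21374642, minus strand, 12 units ending 174 bases before the gene start): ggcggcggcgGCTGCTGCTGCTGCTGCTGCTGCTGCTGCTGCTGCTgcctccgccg
AC class (LOC105378625, chr1:31445775-31445820, plus strand, 13 units ending 43 bases before the gene start): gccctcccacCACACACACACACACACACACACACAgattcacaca
AAT class (CREM, chr10:35194892-35194938, plus strand, 9 units ending 204 bases before the gene start): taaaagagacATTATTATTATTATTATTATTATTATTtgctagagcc
These arrays illustrate the units, and no count in the tables belongs to any 1 of them. In 34961 such promoters (250 bases before to 50 after the gene start), a perfect array of at least 12 bases, on either strand, was found for the CCG class in 3.04%. The share was 1.96% for the A class, 0.666% for AC, 0.372% for AGC and 0.112% for AAT.

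The same search on the longest coding transcript of 19684 genes (GENCODE v29, sense strand) placed the classes in different parts of the transcript. Of 2592 CCG arrays, 52.6% lay in 5′ untranslated regions and 45.9% in coding sequence. Of 1724 AGC arrays, 80.5% lay in coding sequence, as did 79.5% of 623 AAG arrays. By contrast 98% of 879 AT arrays, 95.3% of 7185 A arrays, 92.2% of 499 AAT arrays and 90.9% of 1863 AC arrays lay in 3′ untranslated regions. These regions made up 7.8%, 46.4% and 45.8% of the transcript bases for 5′ untranslated, coding and 3′ untranslated sequence. The counts cannot tell reads of such mature transcripts from reads of introns or of RNA between genes.

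Each library's total of repeat counts was 13064045 and 11520770 in RSeT+DT cells, 38312112 and 17191110 in RSeT cells, and 16838730 and 13628911 in primed cells. RSeT replicate 1 was the deepest library. Genes were not analysed here, and culture state was checked by repeats: HERVK-int, a retrovirus family active in naive-like culture, was at 16529.6 and 17480.1 CPM in RSeT+DT cells, 20069.5 and 19229 CPM in RSeT cells, and 336 and 344 CPM in primed cells. Its promoter LTR5_Hs was likewise lowest in primed cells, but SVA_D, also listed for naive-like culture, was not: it had 1272 and 1301 CPM in RSeT+DT cells, 1355 and 1425 CPM in RSeT cells, and 1371 and 1426 CPM in primed cells. HERVH-int, expressed in pluripotent cells, had 118627 and 114855 CPM in RSeT+DT cells, 73442 and 75615 CPM in RSeT cells, and 23829 and 26519 CPM in primed cells. All 5 LTR families listed as trophoblast markers were found, and their summed level was 421 and 439 CPM in RSeT+DT cells, 452 and 459 CPM in RSeT cells, and 471 and 479 CPM in primed cells. LTR8B made up most of that sum and lay between 306 and 329.95 CPM in all libraries, while LTR10A had 41.3 and 36.3 CPM in RSeT+DT cells, 48.8 and 52.8 CPM in RSeT cells, and 60.6 and 65.7 CPM in primed cells, and MER11D had 26.4 and 26.6 CPM in RSeT+DT cells, 33.8 and 31.9 CPM in RSeT cells, and 43.0 and 42.2 CPM in primed cells. LTR2B was likewise lower in both RSeT+DT libraries than in the primed libraries. The part of such differences in the results was not tested. The 7SL RNA entry took 19.2% to 21.3% of counts in RSeT+DT cells, 14.1% to 14.7% in RSeT cells and 20.5% to 22.1% in primed cells. Such shares move the scale of all other entries, and this is taken up beside the comparisons.

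Microsatellites took a smaller share of repeat counts in RSeT cells than in the other groups. The 80 entries held 4.46% ± 0.0591 in RSeT+DT cells, 3.83% ± 0.0502 in RSeT cells and 4.58% ± 0.122 in primed cells (SD, n = 2 each). The RSeT libraries lay below all 4 others, while RSeT+DT and primed libraries overlapped. For 2 libraries against 2 the smallest p of an exact permutation test (two-sided) is 0.333, so no p is given for shares. In bulk RNA, fewer cells of a type and less RNA per cell cannot be told apart. Within simple repeats of any unit length, the 80 entries held 47.9% to 48.9% of counts in every library.

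The shares differed by the GC content of the unit. Units of 100% GC held 0.827% ± 0.0104 in RSeT+DT cells, 0.609% ± 0.0209 in RSeT cells and 0.789% ± 0.00592 in primed cells. Units of 67% GC held 1.38% ± 0.0206 in RSeT+DT cells, 1.10% ± 0.00895 in RSeT cells and 1.38% ± 0.0400 in primed cells. In both of these bins the RSeT values were the lowest. Units of 0% GC, mostly (A)n and (T)n, held 1.03% ± 0.0131 in RSeT+DT cells, 0.973% ± 0.0193 in RSeT cells and 1.06% ± 0.0352 in primed cells. Both RSeT libraries were again the lowest, over a narrower range than at 67% and 100% GC. The 8 units of 50% GC, all of 2 bases, held 0.614% ± 0.000656 in RSeT+DT cells, 0.625% ± 0.00544 in RSeT cells and 0.761% ± 0.0291 in primed cells, with RSeT+DT and RSeT cells close together and primed cells above them.

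**Figure D1:**
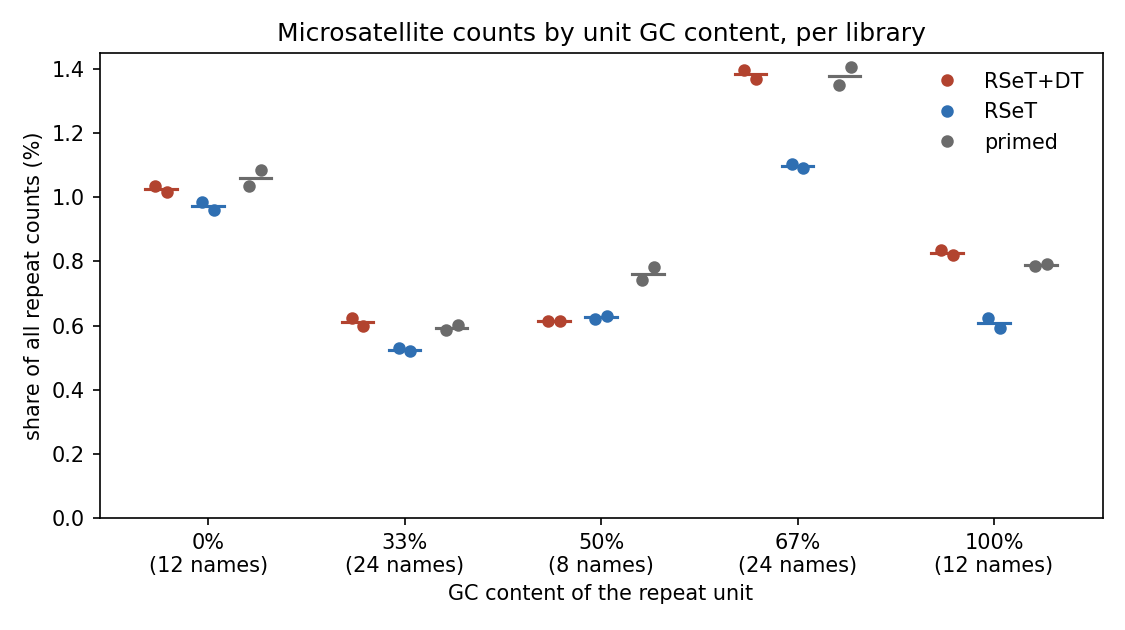
Share of all repeat counts (%) held by microsatellites of each unit GC content, 1 point per library with a line at the mean of the 2 libraries, for RSeT+DT (red), RSeT (blue) and primed (grey) cells. At 67% and 100% GC the RSeT libraries (means 1.10% and 0.609%) sit below both other groups. They do so by less at 0% and 33% GC (means 0.973% and 0.526%). At 50% GC the primed libraries (mean 0.761%) sit above both other groups.

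A ratio within each library does not depend on how libraries are scaled. The log2 ratio of counts on the 36 entries above 50% GC to counts on the 44 others was -0.026 and -0.029 in RSeT+DT cells, -0.31 and -0.32 in RSeT cells, and -0.15 and -0.17 in primed cells. The RSeT libraries were the lowest, the primed libraries intermediate and the RSeT+DT libraries the highest, with no overlap between any of the groups. The CCG class over the AAT class gave log2 ratios of 4.23 and 4.02 in RSeT+DT cells, 3.55 and 3.49 in RSeT cells, and 3.75 and 3.71 in primed cells, in the same order. The AGC class over the AC class gave 0.34 and 0.33 in RSeT+DT cells, -0.016 and -0.059 in RSeT cells, and -0.048 and -0.066 in primed cells, so here only RSeT+DT cells stood apart. The CG class over the AT class gave -3.81 and -4.03 in RSeT+DT cells, -4.56 and -4.62 in RSeT cells, and -3.85 and -3.98 in primed cells, with RSeT cells low and the other groups overlapping. Since genomic lengths are not in the tables used here, a ratio is read only between groups and not as a level per base.

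RSeT cells were compared with primed cells to ask what naive-like culture changes. In edgeR's quasi-likelihood test with TMM scaling (factors that centre most repeats on no change) and Benjamini-Hochberg adjustment over all 4665 tested repeats (adjusted p under 0.05), 42 of the 80 entries were lower in RSeT cells and 7 were higher. Among all tested repeats 23.8% were lower and 22.8% higher. The median log2 fold change was -0.15 over the 80 entries and -0.030 over all repeats. Median fold changes were lowest in GC-rich units with TMM, RLE size factors, library totals and scaling to interspersed repeats. Of 24 entries of 67% GC, 20 were lower and 0 higher (median -0.24), and of 12 entries of 100% GC, 9 were lower and 0 higher (median -0.32). Of 12 entries of 0% GC, 2 were lower and 2 higher (median 0.066), a median that turned to -0.065 with library totals. Of 24 entries of 33% GC, 7 were lower and 5 higher (median -0.013, but 0.014 with RLE size factors), and of 8 entries of 50% GC, 4 were lower and 0 higher (median -0.10). The counts at 33% GC were unstable: 3 or 4 were lower without any 1 of the RSeT or primed libraries, and 3 were higher without RSeT replicate 1 or primed replicate 1. DESeq2 gave 2 lower, library totals 13 lower and scaling to interspersed repeats 14 lower, and both scalings 3 higher. At 0% GC library totals gave 5 lower and 0 higher, scaling to interspersed repeats 6 lower and 0 higher, and the number higher ran from 0 without RSeT replicate 1 or primed replicate 2 to 5 without either RSeT+DT library. It was 1 without primed replicate 1, and 1 entry was lower without RSeT replicate 2 or primed replicate 2. At 50% GC library totals gave 7 lower and scaling to interspersed repeats 8, and at 67% GC 13 were lower without RSeT replicate 2.

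GC-rich entries were mostly lower with and without CpG. Of the 36 entries above 50% GC, 12 of 14 with CpG were lower (median -0.32), and 17 of 22 without CpG were lower (median -0.24). These 2 sets were not matched for GC content. The log2 ratio of counts with CpG to counts without, free of scaling, was -0.837 and -0.890 in RSeT cells and -0.793 and -0.840 in primed cells, which overlapped. By length, 2 of 4 entries of 1-base units, 7 of 14 of 2-base units and 33 of 62 of 3-base units were lower, with medians of -0.16, -0.16 and -0.14. Without RSeT replicate 2 the count of 3-base units was 20, and scaling to interspersed repeats gave 4 of 4 for 1-base and 11 of 14 for 2-base units. Across the 80 entries, GC content and log2 fold change had a Pearson correlation of -0.57 and a Spearman correlation of -0.65, given as a description because the entries share libraries and rotations of the same arrays.

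Among 1-base units, (G)n had 37.8 and 34.7 CPM in RSeT cells, against 60.1 and 57.5 CPM in primed cells (log2 fold change -0.56, SE 0.0704, adjusted p = 3.50e-07, edgeR). (C)n had 148 and 149 CPM in RSeT cells, against 191 and 203 CPM in primed cells (log2 fold change -0.28). Both were lower in RSeT cells with no overlap, whereas (A)n (0.056) and (T)n (-0.042) did not pass. Among 2-base units the lowest fold changes were those of the self-complementary CpG repeats: (GC)n had 26.4 and 23.1 CPM in RSeT cells, against 47.5 and 43.6 CPM in primed cells (log2 fold change -0.73, SE 0.0882, adjusted p = 1.64e-07, edgeR), and (CG)n had 34.3 and 31.8 CPM in RSeT cells, against 47.8 and 48.5 CPM in primed cells (-0.40). (CT)n (-0.40), (TT)n (-0.31), (CA)n (-0.21), (GT)n (-0.18) and (TG)n (-0.15) were also lower. (AC)n (-0.051), (AG)n (0.0053), (GA)n (-0.040), (TC)n (-0.060), (TA)n (0.098) and (CC)n (-0.30) did not pass. (AT)n alone of the 2-base units was higher, at 0.13, but its libraries overlapped in CPM and the value was -0.0050 with library totals.

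Among 3-base units, 5 falls and 4 rises were the largest that passed with at least 50 counts on average and no overlap. (GGA)n, the purine side of the AGG class, had 211 and 207 CPM in RSeT cells, against 317 and 330.3 CPM in primed cells (log2 fold change -0.50, SE 0.0386, adjusted p = 5.89e-11, edgeR). (ACG)n had 37.3 and 35.4 CPM in RSeT cells, against 56.2 and 56.1 CPM in primed cells (log2 fold change -0.49), (GAC)n had 33.5 and 35.4 CPM in RSeT cells, against 51.3 and 49.97 CPM in primed cells (-0.43), and (GCC)n had 823 and 774 CPM in RSeT cells, against 1157 and 1169 CPM in primed cells (-0.41). The last 3 carry CpG in the repeated unit. (ACT)n is rare, with 6.60 and 6.81 CPM in RSeT cells, against 9.74 and 11.1 CPM in primed cells (-0.50). The rises were of purine-rich or AT-rich units. (AGA)n had 92.6 and 94.4 CPM in RSeT cells, against 75.0 and 77.3 CPM in primed cells (log2 fold change 0.43, SE 0.0489, adjusted p = 7.59e-08, edgeR), and (GAA)n had 215 and 206 CPM in RSeT cells, against 172 and 174 CPM in primed cells (0.42). (AGT)n, with 7.20 and 6.52 CPM in RSeT cells, against 4.04 and 5.65 CPM in primed cells (0.67), and (TAA)n (0.15) were the other named rises, the first on few reads. The value of (TAA)n was -0.0076 under scaling to interspersed repeats.

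With each class summed to 1 feature (4601 features tested), 9 of the 16 motif classes were lower in RSeT cells and 1 was higher, where 23.1% of all features were lower and 23.1% higher. The CG class fell most, with 60.7 and 54.9 CPM in RSeT cells, against 95.3 and 92.1 CPM in primed cells (log2 fold change -0.55, SE 0.0627, adjusted p = 8.27e-08, edgeR). The C (-0.34), ACG (-0.32), AGG (-0.27), CCG (-0.23), ACC (-0.20), AG (-0.19), AC (-0.14) and AGC (-0.12) classes were also lower. The AT class was the 1 higher, at 0.11, and its call was lost with library totals (-0.021) and when RSeT replicate 1 or either primed library was left out. Library totals and scaling to interspersed repeats each gave 14 classes lower and 0 higher. Without RSeT replicate 1 the count of higher entries was 3, without primed replicate 1 it was 4, and without either RSeT+DT library it was 11, while entries that were lower numbered 28 to 43 over the libraries left out. Among the entries named in any comparison and the motif classes, some calls no longer passed when 1 library was left out, with these log2 fold changes. Other entries were not followed singly. Without RSeT replicate 1 these were (ACT)n (-0.48), (AGT)n (0.57), (AT)n (0.094), (TAA)n (0.17), (TCT)n (-0.16) and the AT class (0.064). Without RSeT replicate 2 these were (AAG)n (-0.12), (AAT)n (-0.13), (GCA)n (-0.12), (GCT)n (-0.10), (GGC)n (-0.084) and (TAA)n (0.16). Also lost there were (TCT)n (-0.069), (TG)n (-0.13), (TGC)n (-0.15) and the AGC class (-0.096). Without primed replicate 1 these were (AGT)n (0.46), (AT)n (0.12), (GGC)n (-0.12), (TCT)n (-0.11) and the AT class (0.10). Without primed replicate 2 these were (AAG)n (-0.15), (AAT)n (-0.16), (ACT)n (-0.43), (AT)n (0.14), (TAA)n (0.13), (TCT)n (-0.13) and (TG)n (-0.13). Of the classes, AC (-0.12), AGC (-0.11) and AT (0.13) were also lost there.

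RSeT+DT cells were compared with RSeT cells to ask what the drugs change in the same medium. Of the 80 entries 57 were higher in RSeT+DT cells and 4 were lower (edgeR, as above), where 25% of all tested repeats were higher and 17.4% lower. The median log2 fold change was 0.36 over the 80 entries and 0.027 over all repeats. Median fold changes were highest in GC-rich units under the same 4 scalings. Of 24 entries of 67% GC, 23 were higher and 0 lower (median 0.48), and of 12 entries of 100% GC, 10 were higher and 1 lower (median 0.57). Of 24 entries of 33% GC, 16 were higher and 2 lower (median 0.31). Of 8 entries of 50% GC, 4 were higher and 0 lower (median 0.13), and of 12 entries of 0% GC, 4 were higher and 1 lower (median 0.083). Library totals gave 0 higher at 50% GC and 1 higher with 4 lower at 0% GC, scaling to interspersed repeats gave 8 and 9 higher with 0 lower, and 7 entries of 0% GC were higher without RSeT+DT replicate 1. The medians of these last 2 bins turned to -0.025 and -0.070 with library totals, while the bins of 33%, 67% and 100% GC kept positive medians of 0.16, 0.33 and 0.42.

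Of the entries above 50% GC, 13 of 14 with CpG were higher (median 0.57), and 20 of 22 without CpG were higher (median 0.49). The log2 ratio of counts with CpG to counts without was -0.762 and -0.753 in RSeT+DT cells, above the RSeT libraries (-0.837 and -0.890), in sets not matched for GC content. By length, 4 of 4 entries of 1-base units, 7 of 14 of 2-base units and 46 of 62 of 3-base units were higher, with medians of 0.40, 0.13 and 0.41. Library totals gave 2 higher among 1-base units and 2 higher with 2 lower among 2-base units (median -0.024), and scaling to interspersed repeats gave 13 of 14 higher among 2-base units. The log2 ratio of counts on 3-base units to counts on 2-base units was 1.90 and 1.86 in RSeT+DT cells, 1.54 and 1.51 in RSeT cells, and 1.60 and 1.56 in primed cells, highest in RSeT+DT cells without overlap. All 8 entries of 50% GC have 2-base units, so in this bin length and GC content cannot be told apart. In the bins that hold both lengths, 3-base units did not have the higher median. At 0% GC it was 0.095 for 3 entries of 2-base units and -0.049 for 7 of 3-base units. At 100% GC it was 0.72 for 3 entries of 2-base units and 0.58 for 7 of 3-base units. Across the 80 entries GC content and log2 fold change had a Pearson correlation of 0.40 and a Spearman correlation of 0.61, and the Pearson correlation was 0.65 over the 76 entries with a mean count of at least 50, as a description of entries that share libraries and arrays.

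**Figure D2:**
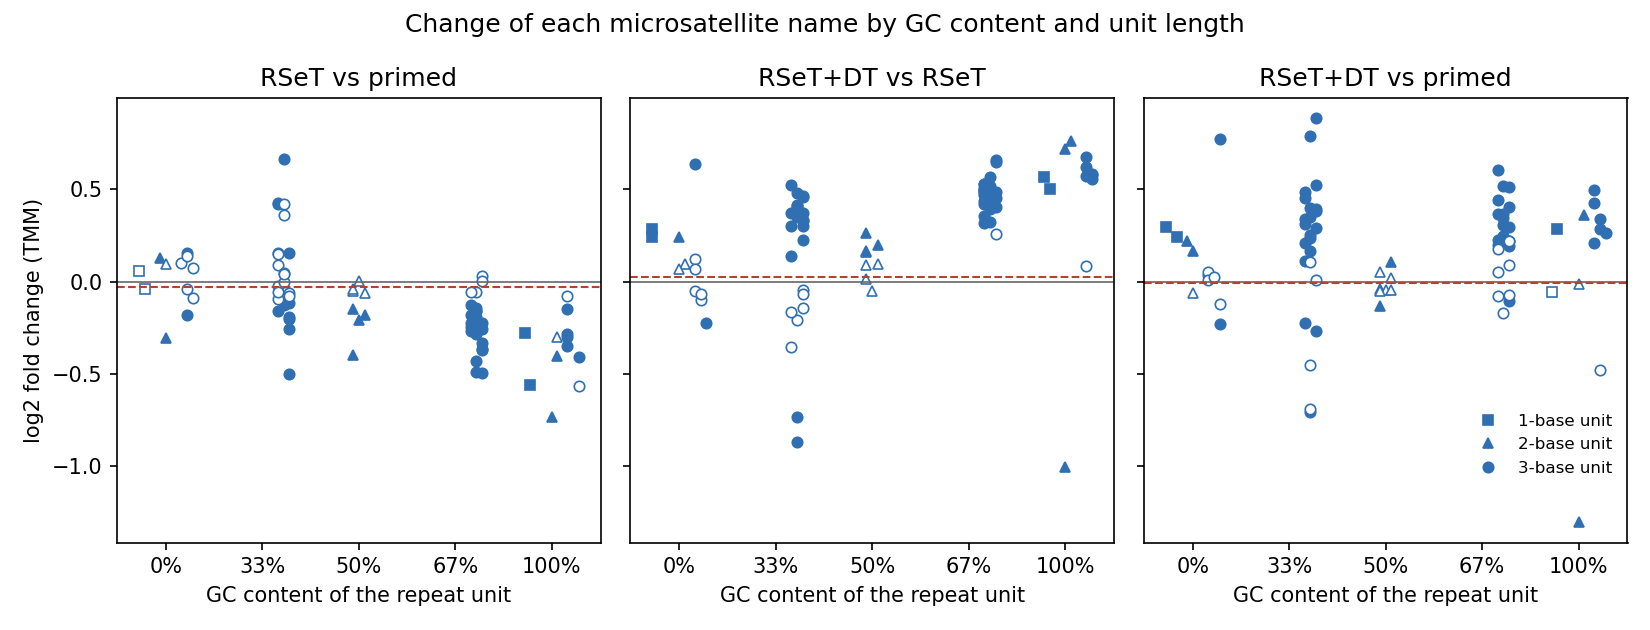
Log2 fold change (TMM) of each of the 80 entries by the GC content of its unit, for RSeT against primed, RSeT+DT against RSeT and RSeT+DT against primed. Squares, triangles and circles mark 1-, 2- and 3-base units, set side by side around each GC value, filled symbols pass at an adjusted p under 0.05, and the dashed line is the median of all tested repeats. In the first panel the entries of 67% and 100% GC lie mostly below the line (medians -0.24 and -0.32), in the middle panel mostly above it (0.48 and 0.57).

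Among 1-base units, (C)n had 205 and 189 CPM in RSeT+DT cells, against 148 and 149 CPM in RSeT cells (log2 fold change 0.56, SE 0.0453, adjusted p = 2.89e-10, edgeR), and (G)n had 48.3 and 44.6 CPM in RSeT+DT cells, against 37.8 and 34.7 CPM in RSeT cells (0.50). (A)n (0.24) and (T)n (0.29) were also higher, and none of the 4 overlapped. Among 2-base units the CpG repeats rose most. (CG)n had 52.1 and 49.1 CPM in RSeT+DT cells, against 34.3 and 31.8 CPM in RSeT cells (log2 fold change 0.76, SE 0.0722, adjusted p = 4.62e-09, edgeR), and (GC)n had 39.7 and 34.2 CPM in RSeT+DT cells, against 26.4 and 23.1 CPM in RSeT cells (0.72). (CT)n (0.26), (TT)n (0.24), (GT)n (0.20), (TC)n (0.17) and (CA)n (0.16) were higher by less. (AC)n (0.012), (TG)n (0.095), (AG)n (-0.053), (GA)n (0.092), (AT)n (0.095) and (TA)n (0.070) did not pass. (CC)n was lower at -1.003 on few reads, with 8 and 14 counts in RSeT+DT cells, against 72 and 38 in RSeT cells.

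Among 3-base units, 5 rises and 1 fall were the largest by the same criteria. (GCC)n had 1159 and 1136 CPM in RSeT+DT cells, against 823 and 774 CPM in RSeT cells (log2 fold change 0.68, SE 0.0468, adjusted p = 2.35e-11, edgeR), and (CCG)n had 1298 and 1268 CPM in RSeT+DT cells, against 952 and 905 CPM in RSeT cells (0.62). (TCG)n had 43.1 and 43.0 CPM in RSeT+DT cells, against 30.1 and 30.6 CPM in RSeT cells (0.66), (GTG)n had 283 and 266 CPM in RSeT+DT cells, against 195 and 195 CPM in RSeT cells (0.65), and (TTT)n had 66.3 and 71.3 CPM in RSeT+DT cells, against 49.1 and 49.4 CPM in RSeT cells (0.63). Passing as higher without overlap was a condition for naming these 5. (TTT)n is a thymine run listed under a 3-base name. (ATA)n, of the AAT class, was the 1 named fall, with 26.9 and 31.7 CPM in RSeT+DT cells, against 36.5 and 39.8 CPM in RSeT cells (log2 fold change -0.22, SE 0.0826, adjusted p = 0.0313, edgeR). The other entries that were lower, (GTA)n (-0.87) and (CTA)n (-0.73), averaged under 50 counts per library and are named here after their values were seen. DESeq2 and scaling to interspersed repeats gave 0 lower at 33% GC, the bin of both. Their calls did not both hold when any 1 RSeT+DT or RSeT library was left out.

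Of the 16 motif classes 13 were higher in RSeT+DT cells and 1 was lower, where 24.6% of all features were higher and 17.2% lower. The CG class (0.75) and the CCG class (0.60) rose most, and the CCG class had 7996 and 7876 CPM in RSeT+DT cells, against 5989 and 5701 CPM in RSeT cells (log2 fold change 0.60, SE 0.0340, adjusted p = 1.45e-12, edgeR). The C (0.55), AGG (0.50), AGC (0.49), ACC (0.49), AAG (0.45), ACG (0.44) and ATC (0.38) classes followed. The A (0.28), AG (0.19), AAC (0.17) and AC (0.12) classes rose by less. With library totals none of these 4 passed, at 0.12 for A, 0.026 for AG, 0.0034 for AAC and -0.040 for AC, and the AG and AAC libraries of both groups overlapped in CPM. The other 9 passed there too. The AAT class did not pass, at -0.0014 (-0.16 and lower with library totals, 0.21 under scaling to interspersed repeats), and had 425 and 484 CPM in RSeT+DT cells, against 509.7 and 507 CPM in RSeT cells. The AT class (0.090) did not pass either. The ACT class, the rarest, was the 1 lower (-0.21), but was at 0.0060 under scaling to interspersed repeats, and its call was lost without RSeT+DT replicate 1, without primed replicate 1 and without either RSeT library. The count of lower entries was 1 without RSeT+DT replicate 1 or RSeT replicate 2 and 2 without RSeT replicate 1. Among the entries named by the criteria in any comparison and the motif classes, some calls no longer passed when 1 library was left out. Other entries, (GTA)n and (CTA)n among them, were not followed singly. The calls lost are given with their log2 fold changes. Without RSeT+DT replicate 1 these were (ATA)n (-0.12), (CC)n (-0.58) and the ACT class (-0.10). Without RSeT replicate 1 these were (CC)n (-1.13) and the ACT class (-0.16). Without RSeT replicate 2 these were (ATA)n (-0.17), (CC)n (-0.91), the AAC class (0.16) and the ACT class (-0.23). Without primed replicate 1 it was the ACT class (-0.20).

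RSeT+DT cells were compared with primed cells as the remaining pair, which uses the same libraries as the other comparisons. With TMM scaling 47 of the 80 entries were higher in RSeT+DT cells and 7 lower (median 0.22), but with library totals 12 were higher and 30 lower (median -0.070). All tested repeats had 25.1% higher and 20.6% lower with TMM, and library totals moved their median by -0.28. The direction for the family as a whole therefore depends on the scaling. By GC content, TMM gave 17 of 24 entries of 33% GC, 16 of 24 of 67% and 8 of 12 of 100% as higher, against 5 of 12 of 0% and 1 of 8 of 50%. With library totals those numbers were 4, 5 and 2, against 1 and 0. Library totals gave medians of -0.24 at 0% and -0.33 at 50% GC, and of -0.015, -0.052 and -0.011 at 33%, 67% and 100% GC. Under both scalings the bins of 0% and 50% GC had the lowest medians. The Pearson correlation of GC content with fold change across the 80 entries was -0.011, the Spearman correlation was 0.092, and the Pearson correlation over the 76 entries with a mean count of at least 50 was 0.13.

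The named 3-base entries of this comparison, 5 rises and 5 falls, had the same direction under both scalings. (AGA)n had 114 and 117 CPM in RSeT+DT cells, against 75.0 and 77.3 CPM in primed cells (log2 fold change 0.89, SE 0.0510, adjusted p = 1.58e-13, edgeR), and (GAA)n had 240.4 and 250.3 CPM in RSeT+DT cells, against 172 and 174 CPM in primed cells (0.79). (TTT)n had 66.3 and 71.3 CPM in RSeT+DT cells, against 48.1 and 49.8 CPM in primed cells (0.77), (TCG)n had 43.1 and 43.0 CPM in RSeT+DT cells, against 34.4 and 34.5 CPM in primed cells (0.61), and (AGG)n had 444 and 416 CPM in RSeT+DT cells, against 357 and 375 CPM in primed cells (0.52). Not overlapping in CPM was a condition for naming these 5, and in CPM all 5 lay above the primed libraries. The largest falls were (ACT)n (-0.71), (TGT)n (-0.27), (AAT)n (-0.23), (GTT)n (-0.22) and (GGA)n (-0.10). (TGT)n had 119 and 117 CPM in RSeT+DT cells, against 169.9 and 177 CPM in primed cells, and (AAT)n had 83.1 and 102 CPM in RSeT+DT cells, against 128 and 136 CPM in primed cells. Of the 1- and 2-base units, (A)n, (T)n, (C)n, (AT)n, (TA)n, (TC)n and (CG)n were higher with TMM, and (T)n, (C)n, (AT)n, (TA)n and (TC)n were below 0 with library totals. (CT)n (-0.13) and (CC)n (-1.30) were lower with TMM. Of the motif classes, 11 of 16 were higher and 0 lower with TMM, where 25.3% of features were higher and 20.2% lower, and library totals gave 0 higher and 6 lower. The 11 with TMM were AAG (0.41), AGC (0.37), CCG (0.37), ATC (0.35), ACC (0.29), A (0.27), AGG (0.23), C (0.21), AT (0.21), CG (0.20) and ACG (0.12). Without RSeT+DT replicate 1 or primed replicate 2, the count of lower entries was 4. Among the entries named in any comparison and the motif classes, some calls no longer passed when 1 library was left out, with these log2 fold changes. Entries beyond these were not followed singly. Without RSeT+DT replicate 1 these were (AAT)n (-0.098), (AGT)n (0.42), (CC)n (-0.88), (GTT)n (-0.19), (TC)n (0.083), the ACG class (0.098) and the CG class (0.097). Without RSeT+DT replicate 2 these were (CT)n (-0.089) and (GGA)n (-0.010). Without RSeT replicate 1 these were (GGA)n (-0.096) and (TC)n (0.12). Without RSeT replicate 2 these were (CT)n (-0.11) and (GGA)n (-0.083). Without primed replicate 1 these were (AGT)n (0.32), (GGA)n (-0.097), (GTT)n (-0.19), (TC)n (0.12) and the ACG class (0.14). Without primed replicate 2 these were (CC)n (-1.02), (CT)n (-0.11), (GGA)n (-0.095), (TC)n (0.11), the ACG class (0.12) and the CG class (0.16).

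**Figure D3:**
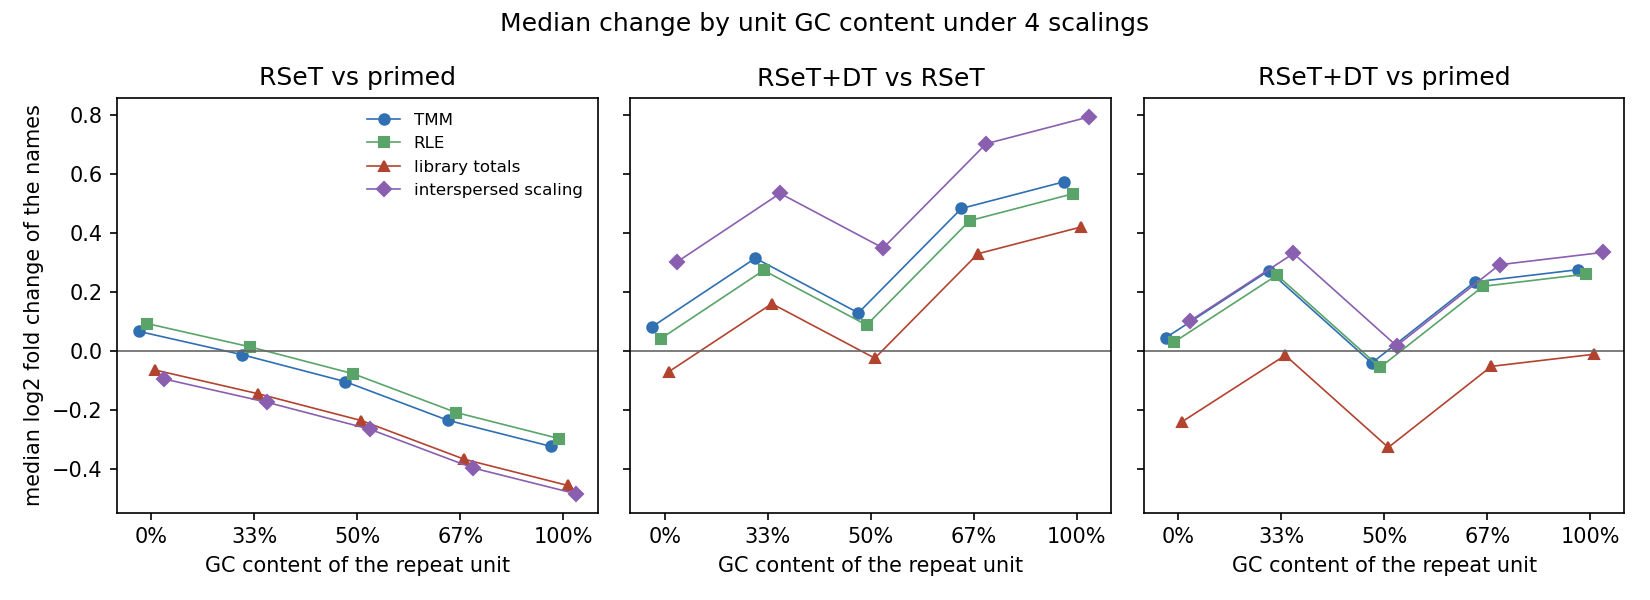
Median log2 fold change of the entries in each GC bin under 4 scalings (TMM, RLE size factors, library totals, and scaling to interspersed repeats), for the 3 comparisons. The scalings shift each line up or down and leave the order of the bins nearly as it was: RSeT against primed declines with GC under all 4, and in RSeT+DT against primed the line for library totals lies below 0 in every bin.

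The AGC and CCG classes hold the expansion units named above. All 6 entries of the AGC class (CAG and CTG) were higher in RSeT+DT than in RSeT cells, by 0.41 for (TGC)n to 0.53 for (GCA)n. (CAG)n, the strand that encodes glutamine in HTT, had 789.6 and 793 CPM in RSeT+DT cells, 659.6 and 642 CPM in RSeT cells, and 798 and 834 CPM in primed cells. (CTG)n, the strand expanded in DMPK, had 1201 and 1183 CPM in RSeT+DT cells, 942 and 922 CPM in RSeT cells, and 1003 and 1033 CPM in primed cells. (CTG)n did not pass between RSeT and primed cells (0.0054), while (CAG)n was lower in RSeT cells (-0.19). The log2 ratio of (CTG)n to (CAG)n, free of scaling, was 0.61 and 0.58 in RSeT+DT cells, 0.51 and 0.52 in RSeT cells, and 0.33 and 0.31 in primed cells, lowest in primed cells. (GCT)n (0.49), (AGC)n (0.50), (GCA)n and (TGC)n rose with the drugs like (CAG)n and (CTG)n. (GCT)n (-0.14), (GCA)n (-0.16) and (TGC)n (-0.18) were lower in RSeT than in primed cells, (AGC)n (-0.056) not passing.

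All 6 entries of the CCG class (CGG and CCG) were also higher in RSeT+DT than in RSeT cells, by 0.56 for (GCG)n to 0.68 for (GCC)n, with 0.57 for (CGC)n, 0.58 for (CGG)n and 0.58 for (GGC)n. (CGG)n, the unit expanded in FMR1, had 701 and 687 CPM in RSeT+DT cells, 528 and 502 CPM in RSeT cells, and 694 and 693 CPM in primed cells. (GGC)n, the entry with the most counts of the class, had 2065 and 2037 CPM in RSeT+DT cells, 1573 and 1487 CPM in RSeT cells, and 1853 and 1863 CPM in primed cells. In both the RSeT libraries were the lowest. RSeT+DT and primed libraries overlapped for (CGG)n and did not for (GGC)n. Between RSeT and primed cells 5 of the 6 were lower, and (CGC)n (-0.078) did not pass. In the sequence search the CCG class had the largest share of promoters with an array, and its counts cannot be assigned to those places.

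The entries of the AAG class (GAA and TTC) moved alike between RSeT+DT and RSeT cells but not between RSeT and primed cells. All 6 entries were higher in RSeT+DT than in RSeT cells, by 0.37 for (GAA)n to 0.52 for (TCT)n, with 0.40 for (AAG)n and 0.46 for (AGA)n. Between RSeT and primed cells, (GAA)n (0.42) and (AGA)n (0.43) were higher, (AAG)n (-0.16) and (TCT)n (-0.12) were lower, and (CTT)n (-0.093) and (TTC)n (-0.076) did not pass. (GAA)n had 240.4 and 250.3 CPM in RSeT+DT cells, 215 and 206 CPM in RSeT cells, and 172 and 174 CPM in primed cells. Its reverse complement (TTC)n had 659 and 646 CPM in RSeT+DT cells, 550.2 and 539.9 CPM in RSeT cells, and 626 and 633 CPM in primed cells. The log2 ratio of (TTC)n to (GAA)n was 1.45 and 1.37 in RSeT+DT cells, 1.35 and 1.39 in RSeT cells, and 1.87 and 1.86 in primed cells. Primed libraries lay apart from both others, which overlapped.

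The remaining 3-base classes differed in how uniformly their 6 entries moved. Among all tested repeats 23.8% were lower between RSeT and primed cells, and 25% were higher between RSeT+DT and RSeT cells. In the ACC class (67% GC) all 6 entries were lower in RSeT than in primed cells (-0.28 to -0.13), and all 6 were higher in RSeT+DT than in RSeT cells (0.32 to 0.65). In the AGG class (67% GC) 5 of 6 were lower in RSeT cells (-0.50 to 0.031), and 6 of 6 were higher with the drugs (0.39 to 0.57). The ACG class (67% GC, with CpG) had 5 of 6 lower (-0.49 to -0.054) and then 5 of 6 higher (0.26 to 0.66). In RSeT cells the summed levels of these classes ran from 155 CPM for the ACG class to 3767 CPM for the AGG class.

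Classes of lower GC content were more mixed. Between RSeT and primed cells 22.8% of all tested repeats were higher and 23.8% lower, and 1 or 2 calls among 6 entries are near those shares. With the drugs 25% of all tested repeats were higher and 17.4% lower. In the ATC class (33% GC) 2 of 6 entries were higher and 2 lower in RSeT than in primed cells (-0.19 to 0.16), but 6 of 6 were higher with the drugs (0.30 to 0.48). In the AAC class (33% GC) 2 of 6 were lower and 0 higher in RSeT cells (-0.26 to 0.093), and 4 of 6 were higher with the drugs (-0.16 to 0.47). In the AAT class (0% GC) 1 was higher and 1 lower in RSeT cells (-0.18 to 0.15), and with the drugs 0 were higher and 1 lower (-0.22 to 0.12). The ACT class (33% GC), with 28.7 and 34.0 CPM in RSeT+DT cells, 40.9 and 39.4 CPM in RSeT cells, and 38.7 and 42.7 CPM in primed cells, had 1 higher and 1 lower in RSeT cells (-0.50 to 0.67), and 0 higher and 2 lower with the drugs (-0.87 to -0.043). Its 6 entries averaged 38.3 to 274.0 counts per library.

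Strand sides also differed in total counts, which are not corrected for genomic length. The log2 ratio of the pyrimidine to the purine side of the AAG class was 2.42 and 2.32 in RSeT+DT cells, 2.32 and 2.31 in RSeT cells, and 2.67 and 2.65 in primed cells, so the pyrimidine side held 5.46 times the counts over all libraries. The pyrimidine side also held more counts in the AG class (4.62 times) and the AGG class (3.36 times), and the C side more than the G side (G over C 0.253). In the AG class the log2 ratio was 2.24 and 2.28 in RSeT+DT cells, 2.08 and 2.07 in RSeT cells, and 2.31 and 2.26 in primed cells, lowest in RSeT cells. In the AGG class it was 1.72 and 1.77 in RSeT+DT cells, 1.74 and 1.75 in RSeT cells, and 1.76 and 1.76 in primed cells, a narrow range over the 6 libraries. For (GGC)n over (GCC)n, 1 pair of the CCG class, it was 0.83 and 0.84 in RSeT+DT cells, 0.93 and 0.94 in RSeT cells, and 0.68 and 0.67 in primed cells, separate in all 3 groups. For (GCG)n over (CGC)n of the same class RSeT cells (-0.68 and -0.75) lay below primed cells (-0.43 and -0.46), the other way round. The CGG over the CCG side of the whole class was -0.14 and -0.13 in RSeT+DT cells. It was -0.078 and -0.10 in RSeT cells and -0.090 and -0.096 in primed cells, which overlapped. Perfect arrays on the sense strand of coding transcripts went the same way as the counts in 8 of 14 classes and the other way in 6, the AAG class among the 6, with a Pearson correlation of -0.19 over the 14 classes. The strand setting of the counting is not given in the sources used here, and what sets these ratios was not tested.

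Simple repeats with units of 4 or more bases, 3350 of them tested, also differed by GC content. Between RSeT and primed cells 959 were lower and 428 higher (median -0.16), with medians of 0.19 at 0% GC and -0.30 at 100% GC. Between RSeT+DT and RSeT cells 1029 were higher and 158 lower (median 0.21), with medians of -0.23 at 0% GC and 0.62 at 100% GC. With TMM the 1136 tested interspersed repeats had medians of 0.16 between RSeT and primed cells and -0.22 between RSeT+DT and RSeT cells, opposite in sign to the 80 microsatellites (-0.15 and 0.36). Library totals moved the median of all repeats by -0.13 and -0.15 in these comparisons, and scaling to interspersed repeats by -0.16 and 0.22. Medians of interspersed repeats under those scalings are not given here, so the contrast in sign holds for TMM alone. Whether the 80 microsatellites differ from either of these groups was not tested.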

How the data were processed

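Total RNA of H9 cells was sequenced in 6 libraries. Both tables are as deposited by the authors: raw counts per repeat name (15600 entries), and CPM (7383 entries with at least 10 counts in total), which equal the counts divided by the summed counts of a library, within 0.00442 CPM. Per the submitters' processing notes, the tools were STAR 2.7.8a, Trimmomatic 0.39, Subread 2.14.2 and featureCounts, and the build was GRCh38. Not given in the sources used here are the tools' roles, the repeat annotation, the strand setting and the handling of reads that map to many places. Reads of microsatellites often map to many places, so counts can depend on that handling.

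Levels are deposited CPM. Counts were tested with edgeR 4.0.16 (R 4.3.3) by its quasi-likelihood test with TMM factors, filterByExpr (at least 10 counts, total 15), 1 fit of all 6 libraries by group alone, and p-values adjusted by Benjamini-Hochberg over the 4665 entries kept. The common biological coefficient of variation was 5.49% on 3 residual degrees of freedom. SE is the fold change's size over the square root of F. For motif classes, the 80 entries were replaced by 16 sums and the fit repeated. "Do not overlap" refers to CPM of the libraries.

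The members, lists and alternatives were chosen with earlier results of these data known. Named entries are all 1- and 2-base units, all of the AGC, CCG and AAG classes, and, per comparison, up to 5 rises and 5 falls of 3-base units that passed, averaged at least 50 counts and did not overlap. Alternatives were RLE factors, library totals, scaling to interspersed repeats (library sizes and TMM factors without simple, low-complexity, small RNA and ribosomal entries), other filters, DESeq2 1.42.0, limma 3.58.1 on log2 CPM with pseudocounts of 1 and 0.1, a block for the replicate number, a fit of just the groups compared, a 2-fold minimum, and each library left out. The test was checked on simulated counts with a fixed spread and few changed entries. That setting is simpler than these data, so the check does not bear on calls that depend on the scaling. Whether replicates were separate cultures is not in the labels, so the p-values reflect spread between libraries that may be technical. Over all repeats of the CPM table, not the 80 entries alone, replicates differed beyond sampling noise. There chi-square divided by its degrees of freedom was 11.5 for RSeT+DT, 4.35 for RSeT and 20.0 for primed libraries. For the 80 entries the median absolute log2 ratio of replicate 1 to replicate 2 was 0.050, 0.039 and 0.062 in these groups. Intervals for single shares are not given, since counting error leaves out the spread between libraries.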

Additional observations from a re-analysis of the deposited data

How the results depend on the processing

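Counts per direction with RLE size factors stayed within 1.5 times of those reported for all 80 entries and for the motif classes. Without the filter on low counts, a fit not run for motif classes, those for all 80 entries did too. Library totals gave 3 entries higher between RSeT and primed cells, 10 lower between RSeT+DT and RSeT cells, and 12 higher and 30 lower between RSeT+DT and primed cells. Scaling to interspersed repeats gave 3, 0 and 4 for entries higher in the first comparison and lower in the other two. Limma on log2(CPM + 1) and log2(CPM + 0.1), which also rest on library totals, gave 3 and 3 higher in the first, 11 and 11 lower in the second, and 11 and 11 higher with 32 and 29 lower in the third. DESeq2 gave 1 entry lower between RSeT+DT and RSeT cells, a mean count of at least 50 gave 11 lower between RSeT+DT and primed cells, and fitting only the groups compared gave 11 higher between RSeT and primed cells. A minimum of 2-fold left 0 calls in each direction apart from 1 entry lower in each RSeT+DT comparison, (CC)n. For motif classes library totals gave 0 higher and 14 lower, 2 lower, and 0 higher and 6 lower in the 3 comparisons, scaling to interspersed repeats gave 0 higher and 14 lower in the first and 0 lower in the second, and DESeq2 gave 0 lower in the second. Leaving out 1 library at a time gave 3 to 11 entries higher and 28 to 43 lower between RSeT and primed cells, 56 to 59 higher and 1 to 4 lower between RSeT+DT and RSeT cells, and 43 to 49 higher and 4 to 6 lower between RSeT+DT and primed cells. Motif classes then numbered 0 to 1 higher and 7 to 9 lower in the first, 12 to 14 higher and 0 to 1 lower in the second, and 9 to 12 higher in the third. With the replicate block, 57 entries were higher between RSeT+DT and RSeT cells, and no call of the named entries or classes changed. The labels share replicate numbers only, and same-numbered libraries deviated together with correlations of -0.12, 0.027 and 0.13 over 58 entries, so the numbers were not taken as pairs. Between RSeT+DT and primed cells, these entries were below 0 with library totals and with limma at either pseudocount, to the same value: (AT)n -0.063, (GCC)n -0.020, (GCG)n -0.074, (GT)n -0.26, (TA)n -0.12, (TAA)n -0.23 and (TC)n -0.18. The values for library totals and for limma with pseudocounts 1 and 0.1 were (AAG)n -0.049, -0.050 and -0.050, (C)n -0.0023, -0.0045 and -0.0046, (CAG)n -0.045, -0.044 and -0.045, (GA)n -0.24, -0.23 and -0.24, (T)n -0.043, -0.045 and -0.045, and (TGC)n -0.060, -0.059 and -0.059. Of the motif classes, library totals gave A -0.023, AAC -0.19, ACC -0.0061, ACG -0.18, AG -0.30, AGG -0.067, AT -0.091, C -0.087 and CG -0.096. Between RSeT and primed cells, scaling to interspersed repeats gave (A)n -0.11, (AG)n -0.16, (AGG)n -0.13, (AT)n -0.034, (CTG)n -0.16 and (TAA)n -0.0076, and -0.049 for the AT class, which was -0.021 with library totals. Library totals gave (AT)n -0.0050, limma -0.0053 and -0.0053, and limma gave (CTG)n -0.13 and -0.13. Between RSeT+DT and RSeT cells, scaling to interspersed repeats gave (AAT)n 0.17, (AG)n 0.17 and (TGT)n 0.15, 0.21 for the AAT class and 0.0060 for the ACT class, limma gave (AC)n -0.14 and -0.14, and library totals gave -0.040 for the AC class. Against TMM, library totals moved the median of all repeats by -0.13, -0.15 and -0.28 in the 3 comparisons and scaling to interspersed repeats by -0.16, 0.22 and 0.058, and why the scalings differ was not tested. Depth limits the entries of few counts, such as (CC)n, (CCC)n and those of the ACT class.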
